A study of Mus musculus with 112 samples.

Results

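LMS1 is one of 6 mouse epiblast stem cell (EpiSC) lines that were derived from late midstreak embryos, labelled as E6.75 to E7.5, of the R1-129 strain. It is described here against LMS2 to LMS6, the other lines of that origin. The line was chosen by its low Shh and Sox21 signals, so those levels are a description and carry no test. The members are its 3 arrays, set beside 15 arrays of LMS2 to LMS6, out of 112 Illumina bead arrays in the series. The starred subline of LMS2, from the same embryo but thawed at another time, and the lines with amplified RNA were left out of the comparison.

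The series covers 18 R1-129 EpiSC lines from cavity (CAV), prestreak (PS), late midstreak (LMS), early bud (EB) and late bud (LB) embryos, with stem cells, fibroblasts and single epiblasts beside them. The lines were harvested from separate cultures, 3 for each line but 2 arrays for PS4, which were grown for 3 days and lifted with collagenase from a fibroblast layer. The LMS1 cultures were at passage 16, while those of LMS2 to LMS6 were at passages 10 to 14. No group carries a genetic change or drug treatment in the labels. Each line is 1 line, so LMS1 stands for 1 derivation and its cultures do not show how midstreak lines vary.

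EpiSC are pluripotent cells taken from the epiblast after implantation. Cells of the anterior primitive streak give rise to the node, the notochord, the floor plate of the neural tube and the definitive endoderm, whereas cells at the posterior end and in the caudal epiblast go on to form mesoderm and the trunk. Sonic hedgehog, the product of Shh, is a secreted signal of the node, notochord and floor plate. It binds the receptor Ptch1, which releases Smo and turns on Gli transcription factors, and Ptch1 and Hhip are themselves targets of the pathway. Sox21 is a Sox transcription factor of neural progenitors.

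All levels below are log2 normalized intensities, on which a step of 1 is a 2-fold change and a probe with no signal reads about 4.4. Because 16 was added before the log, folds of dim genes are understated. A probe was called detected on an array at a detection p under 0.01. The 3 LMS1 arrays had raw medians between 112.7 and 116.4 intensity units with 37.2% to 38.0% of probes detected, and the 15 others had medians between 96.9 and 139.9 with 35.6% to 41.1% detected. Over all genes tested the LMS1 arrays correlated with one another at r of 0.995 to 0.996. Their correlation with LMS2 was 0.964 to 0.978, and with LMS4, the line farthest away, 0.875 to 0.905. Of the 18 midstreak arrays, 0 had identical raw signals. Promoter sequence is shown first, for genes on each side of the LMS1 pattern.

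The stretches are the 250 bases before the annotated start, from RefSeq on GRCm38.p6, written along the gene. Ptch1 (the hedgehog receptor and target) lies at chr13:63565736-63565985 on the minus strand, Foxa1 (a forkhead factor of endoderm and floor plate) at chr12:57546112-57546361 on the minus strand, and Cdx2 (a caudal homeobox factor) at chr5:147307250-147307499 on the minus strand. Ptch1 and Foxa1 were low in LMS1 and Cdx2 was high. Capitals mark the core ACCACCC of the Gli motif, or its reverse GGGTGGT, and the forkhead core TGTTTAC, or its reverse GTAAACA.
Ptch1: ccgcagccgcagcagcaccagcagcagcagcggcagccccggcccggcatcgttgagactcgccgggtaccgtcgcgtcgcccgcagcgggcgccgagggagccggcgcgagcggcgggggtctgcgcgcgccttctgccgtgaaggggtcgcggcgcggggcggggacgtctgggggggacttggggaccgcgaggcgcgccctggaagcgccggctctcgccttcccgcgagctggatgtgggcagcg
Foxa1: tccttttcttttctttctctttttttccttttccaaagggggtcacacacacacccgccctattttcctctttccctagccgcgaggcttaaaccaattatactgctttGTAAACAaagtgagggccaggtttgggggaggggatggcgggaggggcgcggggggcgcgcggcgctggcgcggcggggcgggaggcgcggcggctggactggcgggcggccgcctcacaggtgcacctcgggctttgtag
Cdx2: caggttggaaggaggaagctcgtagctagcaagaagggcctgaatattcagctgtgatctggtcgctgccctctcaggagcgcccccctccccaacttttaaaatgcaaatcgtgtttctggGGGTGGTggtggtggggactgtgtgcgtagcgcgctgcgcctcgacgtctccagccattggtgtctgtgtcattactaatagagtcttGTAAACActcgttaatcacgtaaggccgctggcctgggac
Foxa1 held 1 forkhead match, Cdx2 held 1 Gli core and 1 forkhead match, and Ptch1 held neither. The stretches of Foxa2, low in LMS1, and Nkx1-2, high in LMS1, are not shown and held neither core. Of 32851 promoter stretches of this length, 3.92% held the Gli core and 3.17% the forkhead core on either strand. These are letter matches only. Shh has no entry in the table.

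Shh gave 5.38, 5.01 and 5.19 on the 3 LMS1 arrays, of which 1 detected it, against a lowest value of 9.82, a median of 11.17 and a highest of 12.57 over the 15 arrays of LMS2 to LMS6. The groups were far apart, with LMS1 6.14 lower on the log2 scale than the mean of the other line means. Among the 18 lines LMS1 was lowest at 5.20, followed by LB2 at 7.73 and CAV2 at 9.25, and the other 15 lines stood between 9.84 and 12.35. A second Shh probe, not used in the fit, gave 4.59 to 4.93 in LMS1 and 7.98 to 10.30 in LMS2 to LMS6. Sox21 gave 7.10, 7.31 and 7.09 on the LMS1 arrays, against 10.33, 11.74 and 12.16 as the lowest, median and highest of the others. All 3 LMS1 arrays detected it, and LB2 was again the next line up at 8.74. The label of LB2 is in question, as described below. Thaws of 1 embryo's cells also differed: the starred subline of LMS2 averaged 7.83 for Shh and 8.33 for Sox21, against 10.12 and 10.61 in LMS2. The subline was at passage 13 and LMS2 at 14, and their arrays fell in different array sets, described below. Thaw, passage and array set cannot be told apart there. LMS1 has no such subline in the series as analysed here, and it stood below that subline in both genes. The epiblasts of late midstreak embryos, measured from amplified RNA of single embryos, stood at 4.46 for Shh and 6.18 for Sox21 (means of 3), embryonic stem cells at 4.43 and 6.39 (means of 3), and fibroblasts at 4.43 and 4.76 (means of 2). For Shh, LMS1 therefore lay closer to samples in which no array detected the gene than to any other EpiSC line.

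**Figure D1:**
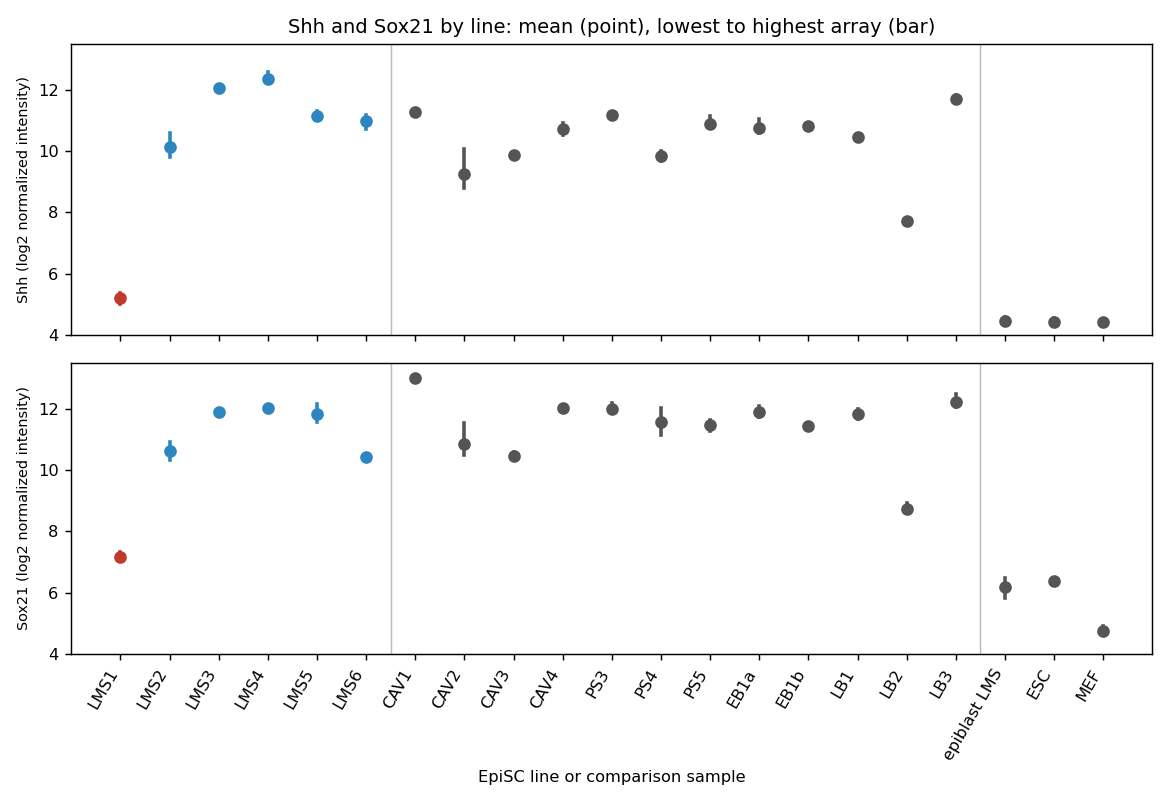
Shh (top) and Sox21 (bottom) in log2 normalized intensity for LMS1 (red), LMS2 to LMS6 (blue), the other 12 R1-129 lines, midstreak epiblasts, stem cells and fibroblasts (grey). Points are means and bars run from the lowest to the highest array. LMS1 lies at 5.20 and 7.17, below each of the other 17 lines.

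The cells of LMS1 carried EpiSC markers, some above and some below the other lines. Pou5f1, a core pluripotency factor, averaged 13.18 in LMS1 and 11.77 in LMS2 to LMS6. Nanog averaged 11.44 in LMS1 and 10.71 in the others, and Fgf5, a ligand of the epiblast after implantation, 10.10 and 9.37. Dnmt3b, a DNA methyltransferase of primed cells, gave 14.22, 14.29 and 14.27 in LMS1, against a lowest of 11.48, a median of 12.90 and a highest of 14.12 in the others. Of 6 markers of naive stem cells, Esrrb and Zfp42 were detected on no LMS1 array, while Klf2, Klf4, Tfcp2l1 and Dppa5a were detected on all 3. Klf2 averaged 8.35 in LMS1 and 7.31 in the others, and Klf4 8.04 and 6.97, and the arrays of all 6 overlapped. Among EpiSC markers Sox2 and Otx2 were lower on all 3 LMS1 arrays, and Cer1, a secreted Nodal antagonist, was detected on none of them. Among visceral endoderm markers Ttr, Afp and Apoa1 were detected on no LMS1 array and Amn on all 3. Of the trophoblast markers Elf5, Hand1 and Krt7 were on none and Ascl2 on 1. The macrophage markers Ptprc, Csf1r and Tyrobp were on none, but Laptm5 and Lyz2 were on all 3, with Lyz2 at 8.29 in LMS1 and 7.32 in the others. Cdh5, Emcn and Cldn5 of endothelium were on none and Tek on 2. Arrays of Amn, Laptm5, Lyz2 and Tek overlapped with the others.

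LMS1 was tested as a line. The mean of its cultures was compared with the line means of LMS2 to LMS6, and the spread came from all 18 lines within their stages (limma, Benjamini-Hochberg adjustment over 13308 genes, limit 0.05). Of these genes, 3 rose in LMS1, or 0.0225%, and 0 fell, or 0%, while 2226 had an unadjusted p under 0.05. Arrays that did not overlap were far more common. On 1090 genes, or 8.19%, all 3 LMS1 arrays lay above all 15 others, and on 1259 genes, or 9.46%, all 3 lay below. Their line mean in LMS1 was beyond all 17 other lines for 676 of the higher genes and 887 of the lower genes. For LMS2 to LMS6 this follows from the lack of overlap itself. A second fit used the 18 midstreak arrays with the line as a random block. It assumes a correlation of 0.707 between cultures of every line. There 59 genes were higher (0.443%) and 136 lower (1.02%). Its degrees of freedom came from arrays, although LMS1 is 1 line, so its p-values here and below can be too small. Against the spread between cultures alone, which measures only whether these lines differ, 28.8% of genes were higher and 29.5% lower. With passage number as a covariate no gene passed in either direction, and 255 had an unadjusted p under 0.05.

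Under median scaling in place of quantile normalization the balance of non-overlapping genes moved. There 74.4% of them were higher in LMS1 (1938 higher and 666 lower), against 46.4% under the main normalization, and the median difference of all genes moved to 0.11. Every gene-list member without overlap kept its sign there, and 85 of 100 stayed without overlap. The members that lost it were Sox4, Sox11, Irx3, Lefty1, Smad3, Acvr2b, Fgf15, Nrarp, Cdkn1c, Peg3, Ndn, Pfkl, Mki67 and Pmaip1 among the lower and Dll3 among the higher.

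The genes that rose were dim. Fetub, a secreted protease inhibitor of the fetuin family, gave 5.74, 5.72 and 5.70 on the LMS1 arrays, against 4.37, 4.54 and 4.77 as the lowest, median and highest of the others, where no array detected it. The groups did not overlap, and LMS1 was at least 1.44-fold higher (adjusted p = 0.00765, limma). Fetub entered the test only through its detection in LMS1, and its spread in the other lines is that of a probe not above background, so its p is no support. This gene was not tied to Shh or Sox21, meaning that its correlation with each of them over the other 17 lines was under 0.5 in size. The other genes that rose, 9930020B22RIK and 9230108M03RIK, were tied to them, and the tables used here give neither a current gene. The first lay between 6.82 and 7.17 in LMS1, against 4.34, 4.43 and 5.72 as the lowest, median and highest of the others. The second gave 6.05, 6.07 and 5.91 in LMS1, against 4.39, 4.72 and 5.19. They were detected on 3 and on 1 of the 15 other arrays. 9230108M03RIK thus also entered the test only through its detection in LMS1. Both were tied to genes of the choice and carry no p, so passing is no support for either. Embryonic stem cells averaged 6.77 for Fetub and 7.59 for 9230108M03RIK, above LMS1, and 4.35 for 9930020B22RIK, below it. None of the 3 genes passed in the same fit over the 6 midstreak lines only, with passage as a covariate or under a stricter filter, and 1 of them passed in the deposited values.

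Many genes that followed Shh among the other lines were low in LMS1. Over the line means of the other 17 lines Shh and Sox21 correlated at r = 0.79. The 6 genes most like Shh were Foxa1, Foxa2, Tmtc2, Slit2, Ptch1 and Col22a1, and each was lower on all 3 LMS1 arrays. Those most like Sox21 were Cxcr4, Rhpn1, Foxb1, Hey1, Col2a1 and Nkx6-1, and the arrays of Rhpn1 and Foxb1 overlapped with the others. Of 1260 genes with r of at least 0.5 to Shh, 43.2% were lower without overlap, with a median difference of -0.74. Of 1161 genes with r of -0.5 or below, 28.8% were higher without overlap. The 10089 genes tied to neither gene had 6.32% lower and 7.03% higher. These shares describe the same choice as Shh itself, since the line was chosen for Shh and Sox21, and they support nothing further.

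**Figure D2:**
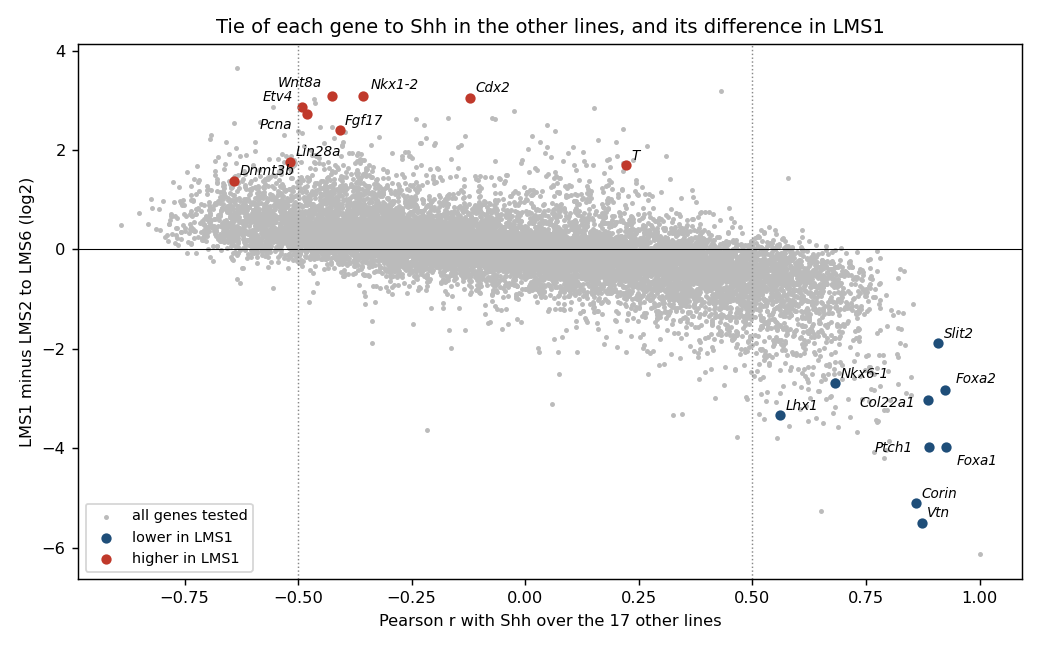
Each point is a gene: its Pearson r with Shh over the 17 lines other than LMS1 (horizontal) and its LMS1 minus LMS2 to LMS6 difference in log2 (vertical). Dotted lines mark r of -0.5 and 0.5. Blue genes such as Ptch1 and Vtn lie low on the right, and Cdx2 and T, in red, lie high with r near the middle.

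Among hedgehog genes the receptor Ptch1, Hhip, Nkx2-2 and Nkx6-1 were lower on all 3 LMS1 arrays and Gli3 was higher. Of 18 members on the array 14 were tested and none passed in either direction. On 5 of them (35.7%) all LMS1 arrays were lower and on 1 (7.14%) they were higher. Over all genes these shares were 9.46% and 8.19%. The median difference was -0.11 beside -0.00379 over all genes tested. Shh itself is among the 5, which leaves 4 of 13 without it, and 5 of the 14 members were tied to Shh or Sox21. The receptor Ptch1 gave 6.25, 5.97 and 6.31 in LMS1, against 9.21, 9.97 and 11.14 as the lowest, median and highest of LMS2 to LMS6. The arrays of the line stood well below every other array, a difference of -3.97, and LB2 was the next lowest line at 8.14. Hhip, a cell-surface protein that binds hedgehog ligand, was detected on no LMS1 array and on 14 of the other 15. It gave 4.56, 4.50 and 4.77 in LMS1, against 5.26, 5.52 and 6.00, at least 1.32-fold lower, and it was tied to neither gene of the choice (adjusted p = 0.216, limma). Of the homeobox factors of the ventral neural tube, Nkx6-1 differed by -2.69, and Nkx2-2 was detected on no LMS1 array and was at least 3.50-fold lower there. The starred subline of LMS2 averaged 5.13 for Nkx6-1, below LMS1 at 6.09, and 7.41 for Ptch1, above LMS1 at 6.18.

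Other hedgehog genes overlapped between the groups. Smo, the transducer, averaged 9.68 in LMS1 and 9.72 in LMS2 to LMS6. Gli2 stood at 9.82 and 9.75, the inhibitor Sufu at 7.30 and 7.20, and the release protein Disp1 at 7.44 and 7.57, all with overlapping arrays. Gli3, the factor that mostly represses targets, was higher on all 3 LMS1 arrays at 11.26, 11.24 and 11.19, against 10.20, 10.73 and 11.10, a difference of 0.54 ± 0.23 (SE, adjusted p = 0.279, limma). Gli1, Ihh, Boc and Gas1 were detected on too few arrays to be tested.

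Most floor plate, node and notochord genes tested were lower on all 3 LMS1 arrays. Of 16 members on the array 11 were tested and 0 passed. Without overlap 8 were lower (72.7%, beside 9.46% of all genes) and 1 was higher, with a median difference of -2.10. Shh is among the 8, which leaves 7 of 10 without it, and of the members tested, 8 were tied to Shh or Sox21. Foxa1 gave 5.73, 5.83 and 5.98 in LMS1, against 8.81, 9.77 and 11.27 as the lowest, median and highest of the others. Its LMS1 arrays lay below every other midstreak array, and the difference of the means was -3.98. Foxa2, its close relative, gave 5.11, 5.27 and 4.98 in LMS1, where 1 array detected it, against 6.95, 7.73 and 8.91. No LB2 array detected Foxa2. Of the secreted BMP antagonists of the node, Chrd differed by -2.10, and Nog was detected on no LMS1 array and was at least 2.74-fold lower. Lmx1a, a homeobox factor of roof plate and midbrain floor plate, was likewise undetected and at least 3.91-fold lower. The member that was higher was T, a T-box factor of streak and notochord, described with the streak genes.

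Most anterior streak and definitive endoderm genes tested were lower as well. All 16 members were on the array, 14 were tested and 0 passed. Without overlap 9 were lower (64.3%, beside 9.46% of all genes) and 0 higher, with a median difference of -1.95. Of the 14, 5 were tied to Shh or Sox21, and 5 of the 9 lower members were untied. Gsc, a homeobox factor of the organizer, gave 5.66, 5.57 and 5.37 in LMS1, against 6.97, 8.28 and 9.68. It was not tied to Shh or Sox21, and its difference of -2.98 ± 1.34 (SE) had an adjusted p of 0.286 in the limma fit over lines and 0.00627 with the line as a random block. Sox17, an endoderm factor, was detected on no LMS1 array and on all 15 others, at least 2.88-fold lower (adjusted p = 0.331 over lines and 0.0338 as a random block, limma). Cer1, at least 3.06-fold lower, and Gata6, an endoderm factor with a difference of -1.85, were untied and passed neither fit. Lhx1, a LIM homeobox factor needed for head organizer activity, gave 5.40, 5.55 and 5.44 in LMS1, against 7.69, 8.48 and 10.30. Cxcr4, a chemokine receptor of endoderm and one of the genes named above as most like Sox21, differed by -2.61. Eomes, a T-box factor upstream of endoderm, went the other way at 7.88 in LMS1 and 5.74 in the others, though LMS2 reached 7.86 and the arrays overlapped.

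**Figure D3:**
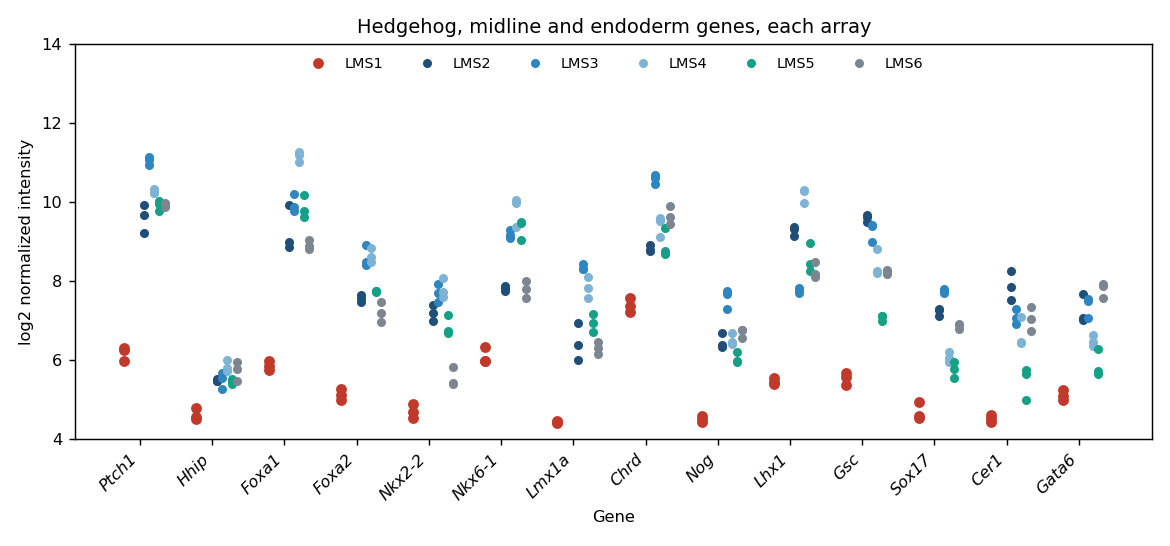
Log2 normalized intensity of each array for hedgehog, midline and endoderm genes, with the 3 LMS1 arrays (red, left of each gene) and the 15 arrays of LMS2 to LMS6 (right, by line). For all 14 genes the LMS1 arrays lie below every other array, and several stand near the level of an undetected probe.

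Some streak and caudal genes stood higher on all 3 LMS1 arrays. Of 21 members on the array 17 were tested, 0 passed, and 6 were higher without overlap (T, Fgf17, Cdx2, Nkx1-2, Sp8 and Fst) against 1 lower (Lhx1) and 10 with overlap, with a median difference of 1.26. The 6 are 35.3% of the members tested, beside 8.19% of all genes. Of the 17, 1 was tied to Shh or Sox21. T gave 11.34, 11.33 and 10.97 in LMS1, against 7.38, 9.96 and 10.55 as the lowest, median and highest of the others. It was highest in LMS1 among all 18 lines, but the difference of 1.69 ± 0.89 (SE) did not pass (adjusted p = 0.337, limma). Cdx2, a homeobox factor of the posterior body, gave 8.05, 8.37 and 8.42 in LMS1, where every array detected it, against 4.41, 4.76 and 6.90, where 6 of 15 did. Nkx1-2, a homeobox factor of the caudal epiblast, gave 8.50, 8.84 and 8.72 in LMS1, against 4.46, 5.03 and 7.60. The differences were 3.06 ± 1.69 for Cdx2 and 3.08 ± 1.00 for Nkx1-2 (SE), with adjusted p of 0.354 and 0.206 over lines and 0.0181 and 0.0245 with the line as a random block (limma). The prestreak line PS4 was higher than LMS1 in both, at 10.59 and 9.01, so these levels were not outside the range of EpiSC lines.

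Wnt8a, a ligand of the streak, gave 11.15, 11.07 and 11.13 in LMS1, against 6.06, 7.30 and 10.18. Its difference of 3.09 passed neither fit (adjusted p = 0.228 over lines, limma), and PS4 stood at 11.21. Fgf17, an FGF ligand of the streak, averaged 8.49 in LMS1 and 6.09 in the others. Etv4, an ETS factor downstream of FGF receptors, gave 9.94, 10.25 and 10.12 in LMS1, against 5.88, 7.15 and 8.59, and no other line reached it. Its difference was 2.87 ± 0.87 (SE), with an adjusted p of 0.205 over lines and 0.0209 as a random block (limma). Sp8, a zinc finger factor of the caudal epiblast, differed by 1.30 and Fst, a secreted Activin antagonist, by 1.58. Mixl1, Wnt3a, Cdx1, Tbx6 and Evx1 did not share this: their LMS1 arrays overlapped with the others and their differences lay between -0.05 and 0.42.

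**Figure D4:**
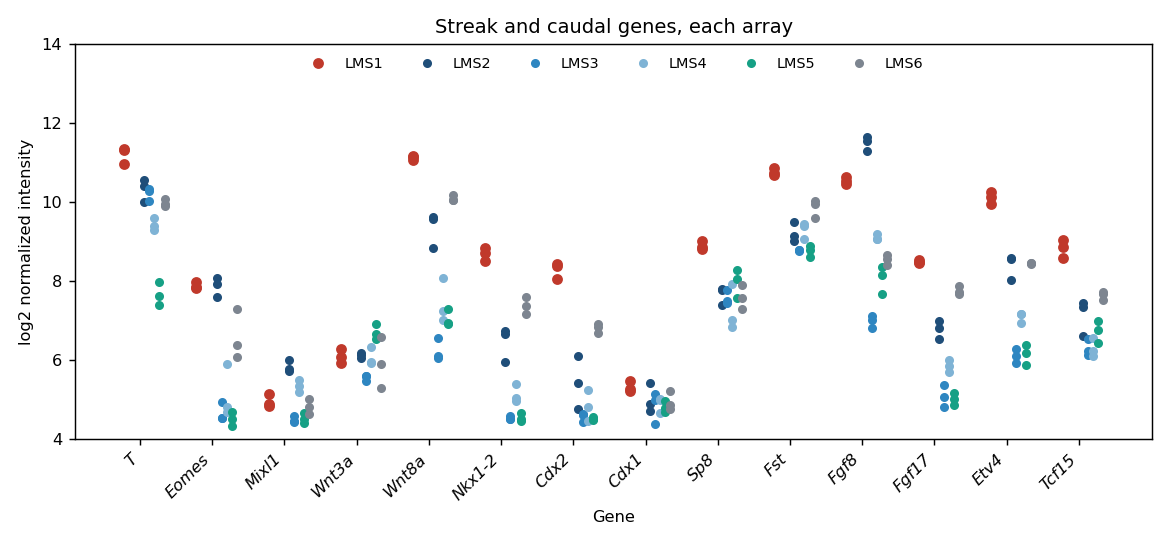
Log2 normalized intensity of each array for streak and caudal genes, with the 3 LMS1 arrays (red, left of each gene) and LMS2 to LMS6 (right, by line). T, Wnt8a, Nkx1-2, Cdx2, Etv4 and Fgf17 lie above all other midstreak arrays, while Mixl1 and Wnt3a overlap with them.

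LB2 was the other line with low Shh and Sox21. Its label is in question, since amplified RNA labelled LB2 averaged 9.50 for Shh and 10.91 for Sox21. Ttc27 averaged 9.31 in PS5 and 5.98 in LB2, but 6.79 and 9.18 in amplified RNA under those labels. Xlr4a averaged 6.32 in PS5 and 10.32 in LB2, but 10.72 and 7.31 in that amplified RNA. Whether the labels are exchanged was not tested, and the fits took the lines as labelled. Under its given label, LB2 stood beside LMS1 as follows. Nkx6-1 averaged 6.09 in LMS1 and 5.95 in LB2. Nkx2-2 was detected on no array of either line, and Foxa2 on 1 LMS1 array and 0 LB2 arrays. T was 11.21 in LMS1 and 8.34 in LB2. Cdx2 was 8.28 in LMS1 and was detected on 0 of 3 LB2 arrays. Each is 1 line, and these values are a description. Wnt8a and Nkx1-2 were 11.12 and 8.69 in LMS1, and 10.16 and 7.30 in LB2.

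The signalling lists are read beside 8.19% of all genes higher and 9.46% lower without overlap. For FGF and ERK, 15 of 19 genes on the array were tested, with 3 higher, 2 lower and a median of 0.73. The receptor Fgfr2 gave 7.48, 7.70 and 7.74 in LMS1, against 8.89, 9.87 and 10.40, a difference of -2.10 ± 0.53 (SE, adjusted p = 0.152 over lines and 0.0107 as a random block, limma), and LMS1 was the lowest of all 18 lines. The feedback phosphatase Dusp6 was higher on all LMS1 arrays, with a mean of 12.84 against 12.07. For BMP, 17 of 22 were tested, with 0 higher, 5 lower, all of them tied to Shh or Sox21, and a median of -0.47. The ligand Bmp7 was detected on no LMS1 array and was at least 4.48-fold lower, and the target Id1 gave 6.74, 6.70 and 6.81 in LMS1, against 8.17, 8.68 and 9.53. For Notch, 11 of 18 were tested, with 2 higher, 4 lower and a median of -0.93. The receptor Notch1 and the targets Hes1, Hey1 and Nrarp were lower, and the ligands Dll3 and Jag1 were higher. The 4 lower Notch genes were tied to Shh or Sox21. For Wnt, 21 of 25 were tested, with 2 higher (9.52%), 3 lower (14.3%) and a median of -0.03, close to the shares over all genes. The Wnt targets Axin2 and Lef1 had overlapping arrays, and the inhibitor Sfrp1 differed by -1.82. For Nodal and Activin, 15 of 17 were tested, with 0 higher, 4 lower and a median of -0.44, and 1 of the 4 stayed lower without overlap under median scaling. Nodal itself averaged 10.83 in LMS1 and 9.69 in the others with overlap, and its inhibitor Lefty1 11.60 and 12.74. For the retinoic acid pathway, 13 of 16 were tested, with 2 higher, 3 lower and a median of -0.40. Cyp26a1, the enzyme that breaks down retinoic acid, averaged 6.04 in LMS1 and 8.51 in the others. No member of these 6 lists passed in the fit over lines.

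Neural Sox genes were lower in part. Of 14 neural Sox genes on the array 13 were tested. Without overlap 7 were lower (53.8%, beside 9.46% of all genes), with a median of -0.89. Sox21, by which the line was chosen, is among them, which leaves 6 of 12 without it. Of the 13, 9 were tied to Shh or Sox21 and all of the lower ones were among those 9, and 5 of the 7 stayed without overlap under median scaling. Sox2 gave 7.31, 7.46 and 7.69 in LMS1 against 8.26, 8.79 and 9.66. Sox2 was thus lower on all LMS1 arrays while those of Pou5f1 and Nanog overlapped. Of 31 neuroectoderm genes on the array 21 were tested, with 3 lower (En1, Otx2 and Irx3) and 1 higher (Pou3f1). These are 14.3% and 4.76% of the members tested, beside 9.46% lower and 8.19% higher of all genes. Of the 21, 13 were tied to Shh or Sox21, and 1 of the 3 lower members was untied. Of 12 core pluripotency genes 11 were tested, with 2 higher (18.2%, Lin28a and L1td1) and 1 lower (9.09%, Sox2). Lin28a, L1td1 and Sox2 were all tied to Shh or Sox21. Lin28a and Lin28b, RNA-binding proteins that block let-7, averaged 10.33 and 8.76 in LMS1, against 8.56 and 7.01. The naive pluripotency list had 10 of 19 members tested and none without overlap. None of these genes passed in the fit over lines.

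Several imprinted genes stood lower in LMS1. Of 20 on the array 16 were tested, with 6 lower (37.5%, beside 9.46% of all genes), 1 higher and a median of -0.75. All 6 were tied to Shh or Sox21, and 3 of them stayed without overlap under median scaling. H19, a long noncoding RNA, gave 11.50, 10.89 and 11.12 in LMS1, against 12.95, 13.56 and 14.19, a difference of -2.42. Igf2, a growth factor of the same imprinted region, gave 12.54, 12.10 and 12.16 in LMS1, against 13.16, 13.94 and 14.15. In both, LMS1 was the lowest of 18 lines, and both were tied to Shh and Sox21 across the other lines, with r between 0.50 and 0.58. Nnat, Peg3, Cdkn1c and Ndn were the other lower members, and Peg10 the higher one.

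**Figure D5:**
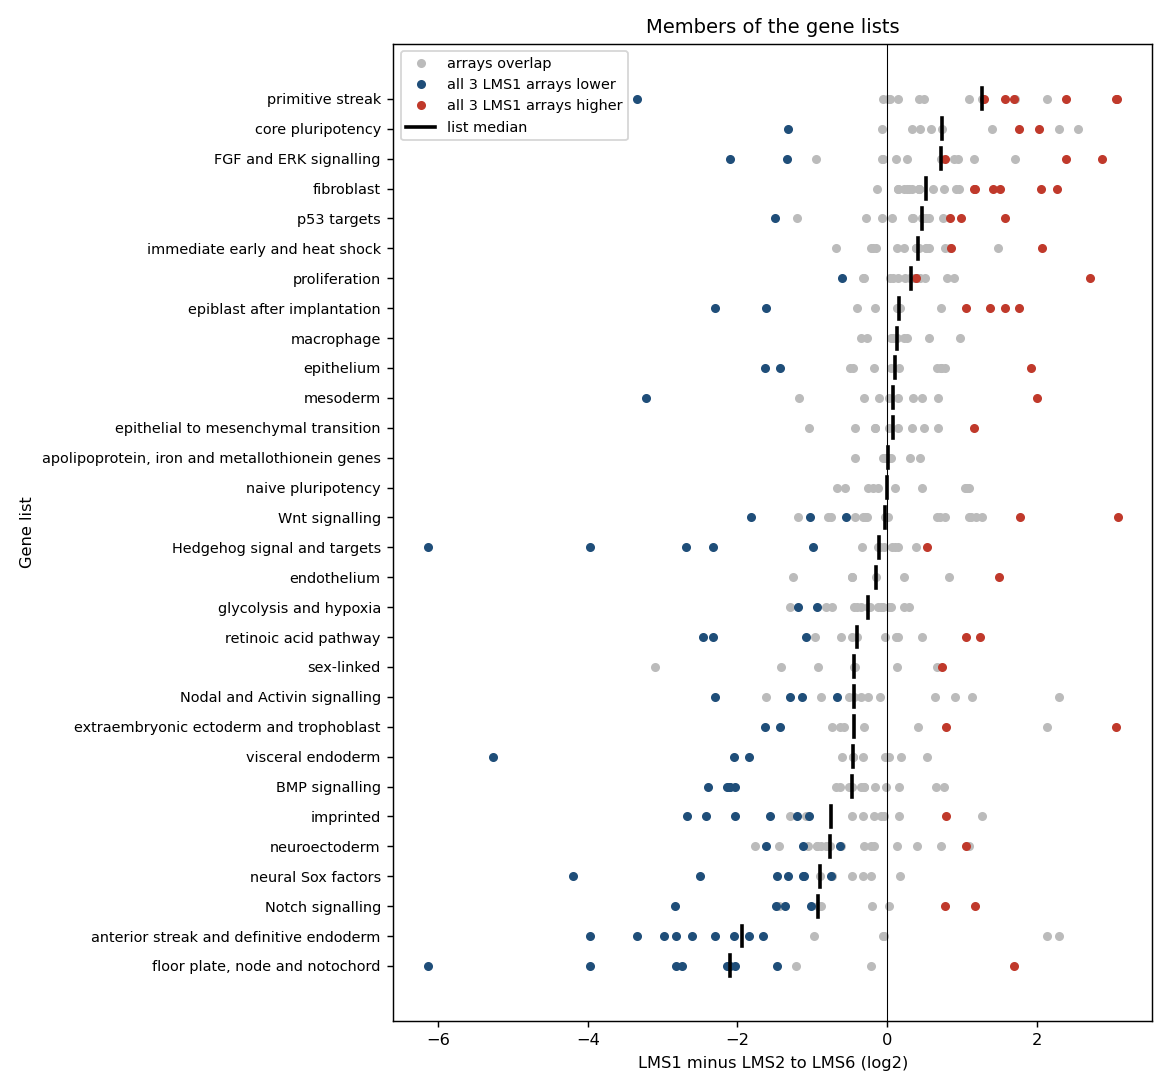
LMS1 minus LMS2 to LMS6 in log2 for the tested members of the gene lists described with at least 5 of them, with blue where all 3 LMS1 arrays are below the other 15, red where all are above and grey where arrays overlap. Black bars are list medians, which run from 1.26 for primitive streak to -2.10 for floor plate, node and notochord.

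The largest differences without overlap were chosen after their values were seen. On the lower side Vtn, the adhesion protein vitronectin, gave 4.37, 4.44 and 4.63 in LMS1, where no array detected it, against 7.87, 10.07 and 12.41, and was at least 27.5-fold lower. Spink1, a trypsin inhibitor, differed by -5.27. The starred subline of LMS2, left out of the comparison, was also low in Spink1, at 6.60 beside 5.82 in LMS1 and 11.32 in LMS2. In Vtn that subline stood at 8.02, above LMS1. Corin, a membrane protease, was undetected in LMS1 and at least 24.4-fold lower, Cbln1, a secreted synapse protein, at least 14.3-fold and Fam183b at least 14.1-fold. All of these were tied to Shh or Sox21. Ednrb, the endothelin receptor B, averaged 6.31 in LMS1 and 10.10 in the others. On the higher side Xlr4a of the X chromosome averaged 10.63 in LMS1 and 6.98 in the others, but LMS2 stood at 10.28 and LB2 at 10.32. Ttc27 gave 10.96, 11.09 and 11.24 in LMS1, against 5.23, 8.26 and 10.29. Pcna, the sliding clamp of DNA replication, gave 9.76, 10.39 and 9.89 in LMS1, against 6.04, 7.22 and 9.03, and was untied (adjusted p = 0.156, limma). Its level moved with the array set described below: the lines in the set of LMS1 averaged 8.61 to 9.21, and the difference was 1.40 against LMS2, the midstreak line of that set, beside 2.72 against all 5 lines. The part of the array set was not tested. Epha1, Gbp2b, Ccl2 and Mmp10 differed by 2.78 to 3.02. Mmp10 also averaged 7.14 to 8.53 in the 5 other lines of the array set of LMS1, and 5.27 to 7.34 in LMS3 to LMS6. Fibroblasts averaged 12.19 for Ccl2 and 11.25 for Mmp10, above LMS1 at 9.93 and 9.20. For Epha1 and Gbp2b they averaged 5.83 and 4.67, below LMS1. The part of fibroblast RNA in these genes was not tested.

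The remaining lists varied in their share of members apart. Of 15 p53 targets tested, 3 were higher (Cdkn1a, Ccng1 and Phlda3) and 1 lower (Pmaip1), with a median of 0.47. Cdkn1a, an inhibitor of the cell cycle, gave 12.44, 12.43 and 12.33 in LMS1, against 10.06, 10.95 and 11.49, with an adjusted p of 0.338 over lines and 0.00805 as a random block (limma). Of 17 proliferation genes tested, Ccnd3 and Pcna were higher and Mki67, a mark of cycling cells, lower. Of 13 genes of the epiblast after implantation, 4 were higher (30.8%) and 2 lower (15.4%). The mesoderm list had 1 higher (Tcf15) and 1 lower (Isl1) of 10, and the germ cell list 1 lower (Kit) of 2. Immediate early and heat shock genes had 2 higher of 18 (11.1%), glycolysis and hypoxia genes 2 lower of 17 (11.8%), and epithelial to mesenchymal transition genes 1 higher of 10. The shares in the sentence before were close to the 8.19% higher or 9.46% lower of all genes. Those of p53 targets (20% higher) and of the epiblast after implantation (30.8% higher) were above 8.19%. The epithelium list had 1 higher (Grhl2) and 2 lower (the keratins Krt8 and Krt18) of 12, and the sex-linked list 1 higher (Eif2s3x) of 8. The apolipoprotein, iron and metallothionein list had 0 apart of 9. No member of these lists passed in the fit over lines.

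Markers of other cell types were measured as summed linear signals. The visceral endoderm list summed to 6522 to 8213 in LMS1 and 5245 to 11606 in LMS2 to LMS6, with 3 of 11 tested members lower (Sox17, Gata6 and Spink1). The trophoblast list summed to 1824 to 1899 in LMS1 and 1415 to 4342 in the others, with 2 of 10 higher (Cdx2 and Peg10) and 2 lower (Krt8 and Krt18). The macrophage list summed to 808 to 914 in LMS1 and 416 to 4726 in the others, with 0 of 9 apart. The endothelium list summed to 1560 to 1570 in LMS1 and 1059 to 2376 in the others, with 1 of 7 higher (Esam). For each of these lists the LMS1 sums lay inside the range of the other midstreak lines, and their part in the results was not tested.

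Fibroblast markers, array sets and passage moved with the line. The fibroblast list, which marks the layer under the cells, had 6 of 20 tested members higher without overlap (Col1a1, Col1a2, Col3a1, Col6a2, S100a4 and Tagln) and 0 lower. The 6 are 30% of the members tested, beside 8.19% of all genes, and the median of the list was 0.52. Its summed linear signal was 38985 to 45081 over the LMS1 arrays, 15718 to 42850 over LMS2 to LMS6 and 131555 to 131761 in fibroblasts. Postn, one of 2 members detected on no LMS1 array, was undetected in LMS2 to LMS6 as well, and the part of fibroblast RNA in the higher genes was not tested. In bulk RNA, fewer cells of a type and less RNA per cell cannot be told apart. The background signal of probes put the LMS1 arrays in a set with all arrays of LMS2, CAV1, CAV2, CAV3 and LB1. Within that set LMS1 was beyond all of these 5 lines for 763 of the 1090 higher genes and 1045 of the 1259 lower genes. These genes were chosen as apart from LMS2, 1 of the 5 lines, so the counts are in part fixed in advance. Fits with the array set as a term, or kept to that set, gave the gene counts listed at the end. What the set adds to the differences was not itself tested. Ptch1 spanned 9.39 to 10.45 and Foxa1 8.72 to 9.65 in the 5 other lines of that set, above LMS1 at 6.18 and 5.85. Cdx2 spanned 5.07 to 9.08 and Wnt8a 7.90 to 10.41 there, so the Cdx2 level of 8.28 in LMS1 was within their range and the Wnt8a level of 11.12 was not. Passage and line cannot be told apart among the midstreak lines, since LMS1 alone was at passage 16.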

How the data were processed

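RNA of 3 LMS1 cultures and of the other lines was measured on Illumina bead arrays. The authors deposited a raw intensity and a detection p-value for each probe, and the submitters' processing notes name BeadStudio. Their second deposited table holds log2 values made by a method not given in the sources used here, with 3 LB2 columns that each matched a different LB2 array, and served as an alternative. Array type and genome build are not given in the sources used here.

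All 112 arrays were normalized together by neqc (limma 3.58.1 in R 4.3.3; tables were read with data.table, version 1.17.8), which models the background from detection p-values, adds 16, scales by quantiles and takes log2. Of 30774 names on the array, 15991 matched a current symbol, 5826 a synonym and 8957 stayed as given. The probe with the highest mean stood for a gene. Genes were tested when detected (p under 0.01) on at least 3 of the 18 midstreak arrays. Tests came from limma (lmFit, then eBayes with an intensity trend) on means of 18 lines, or on cultures where stated, were 2-sided and were checked on simulated data. ± is the standard error of a log2 difference. p-values over cultures measure only the spread between cultures. Those with the line as a random block take degrees of freedom from arrays, not lines. A fold against a group in which no array detected a gene is a bound (at least N-fold): each dim array is set to its lowest detected probe, or to the gene where higher. Genes tied to Shh or Sox21 carry no p.

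The members, the gene lists and the tests were chosen with earlier results of these data known. Named are Shh, Sox21, list members, the genes that passed, the 6 most like each of Shh and Sox21 over the other 17 lines (among genes detected on at least 0.5 of the 53 arrays of the 18 lines), and, chosen after values were seen, the largest differences without overlap. Replicate numbers did not pair cultures across lines. Alternatives covered the unit, the lines in the fit, passage, array sets (7 sets from 13482 probes not above background), normalization, filter and probe rule. Some genes and lists are not reported here. The number of arrays limits precision.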

Additional observations from a re-analysis of the deposited data

Results flagged for a closer look

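The mean of LMS6 for 9930020B22RIK, one of the genes that rose in LMS1, was 5.46, far from the other 4 lines of LMS2 to LMS6, of which the next stood at 4.48 and the lowest at 4.38. The gap was 0.90 of the whole range of the 5 lines. LMS1 arrays lay between 6.82 and 7.17, above LMS6 as well. Such gaps were looked for in 37 named genes and 1 was found, while chance alone flags about 1 in 20 groups.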

How the results depend on the processing

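Counts of genes past the limit depended on the fit. In the order higher and lower in LMS1, they were 3827 and 3928 with cultures as the unit, 59 and 136 with the line as a random block, 49 and 156 with array sets as a fixed term and the line as a random block, 2235 and 2460 with LMS2 alone, the other midstreak line of the array set, 0 and 0 over the 6 midstreak lines only (1313 genes with an unadjusted p under 0.05), 14 and 2 against the other 17 lines, 92 and 45 with sublines averaged in, 0 and 0 with passage as a covariate (255 unadjusted), 16 and 0 without background correction, 10 and 2 under median scaling, 5 and 2 with the 18 lines normalized alone, 9 and 0 in the deposited values, 70 and 15 without a filter, 0 and 0 with a stricter filter (2033 unadjusted), and 6 and 0 against the other lines of the array set of LMS1, an alternative chosen after seeing the data. Leaving out each other line, or each LMS1 culture, gave 3 to 45 higher and 0 to 8 lower: without LMS2 45 and 8, without LMS6 13 and 4, and without the third LMS1 culture 9 and 2. The causes were not tested. Genes without overlap were 1938 higher and 666 lower under median scaling and 942 higher and 1110 lower in the deposited values. The other 2 normalizations keep the order of probes within each array before quantile scaling, so their equal counts of 1090 and 1259 are no separate check.

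A 2-fold minimum and every probe on its own gave 3 or 4 higher and 0 lower.

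Replicate numbers as a block on cultures gave 4113 higher and 4176 lower. Deviations of same-numbered cultures of LMS1 and the other lines correlated at -0.17 to 0.18 over 15 pairs, so the samples share only a number.

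Against LMS2 alone, 13 named genes had the opposite sign to their main difference: Sufu (-0.37), Disp1 (0.36), Fgf8 (-0.96), Hoxb7 (0.69), Hoxc9 (0.49), Nodal (-0.48), Notch3 (-0.78), Dppa4 (-0.36), Klf2 (-0.64), Dnmt3l (-1.62), Rbp4 (-0.50), Xist (1.54) and Sesn2 (-0.47). Their cause was not tested. Fetub did not pass over the 6 midstreak lines (adjusted p = 0.291, limma) or with passage as a covariate (adjusted p = 0.538). Dim signal limits folds, since undetected genes give bounds only.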
